A study of Mus musculus with 6 samples.

Results

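The antioxidant and redox genes described here are 40 mouse genes that encode antioxidant and redox enzymes, with the pair of proteins that control many of them, measured in islets of FXR+/+ and FXR-/- mice. The genes were taken from the deposited gene counts by symbol, 40 of the 19342 genes listed. All 40 were counted and all 40 passed the filter on low counts, which left 14619 genes to test. They comprise *Sod1*, *Sod2*, *Sod3*, *Cat*, *Gpx1*, *Gpx2*, *Gpx3*, *Gpx4*, *Gpx7*, *Gpx8*, *Prdx1* to *Prdx6*, *Srxn1*, *Txn1*, *Txn2*, *Txnrd2*, *Txnrd3*, *Txnip*, *Glrx*, *Glrx2*, *Glrx5*, *Gclc*, *Gclm*, *Gss*, *Gsr*, *Nfe2l2*, *Keap1*, *Nqo1*, *Hmox1*, *Hmox2*, *Gsta4*, *Gstm1*, *Gstm5*, *Gstp1*, *Gstt1* and *Ucp2*.

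FXR, the bile acid receptor encoded by *Nr1h4*, was absent by label in the knockout mice, which the study describes as C57Bl/6, and the labels call the controls wild type. Islets of mice aged 3 months were isolated from the pancreas with collagenase, and RNA-seq was carried out on 3 libraries of each genotype, 1 female and 2 male. They are called female 1, male 1 and male 2, and no treatment other than the isolation is labelled. How many mice gave each library, and whether libraries of 1 group came from separate mice, is not given in the sources used here, so the p-values measure the spread between these libraries.

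Cells dispose of reactive oxygen in steps. Superoxide dismutases turn superoxide into hydrogen peroxide, and catalase, glutathione peroxidases and peroxiredoxins remove the peroxide. Glutathione and thioredoxin supply the electrons and are themselves reduced with NADPH. The transcription factor NRF2, encoded by *Nfe2l2*, is held in check by KEAP1 and binds antioxidant response elements in many of these genes. Pancreatic β-cells are known for low catalase and low glutathione peroxidase 1, and for *Txnip*, a thioredoxin-binding protein whose transcription follows glucose.

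The library totals ran from 20629306 to 30139235 counts. The unit CPM is a gene's count scaled to a library of fixed size, after adjustment of the libraries by TMM. The 13 listed β-cell markers, *Ins1* and *Ins2* among them, summed to 19.0% to 27.5% of CPM. The 26 acinar markers counted summed to 5.40%, 14.6% and 4.87% in FXR+/+ female 1, male 1 and male 2, and to 6.91%, 16.6% and 9.84% in the FXR-/- libraries in that order. The male 1 library was thus the highest in acinar RNA in both genotypes. The summed level of 9 endothelial markers was 511 to 612 CPM in FXR+/+ and 642 to 1018 CPM in FXR-/- islets, without overlap, and that of 10 macrophage markers was 113 to 155 CPM against 152 to 186 CPM. None of the counted markers of these lists was at 0 in every library. At an unadjusted p under 0.05 by edgeR, 7 of the 9 endothelial and 4 of the 10 macrophage markers were higher in FXR-/- islets, against 6.18% of all genes tested. In these 2 lists 0 were lower at that level and 0 had an adjusted p under 0.05. In bulk RNA, a change in the number of cells of a type and a change in RNA per cell cannot be told apart. *Nr1h4* itself was still counted, and which stretch of it the knockout lacks is not given in the sources used here. It was 14.2, 13.6 and 12.2 CPM in FXR+/+ islets and 5.67, 7.63 and 5.81 CPM in FXR-/- islets. Its log2 fold change of FXR-/- over FXR+/+ was -1.07 (SE 0.16, adjusted p = 0.217 by edgeR). With libraries of the same sex and number treated as a block, the adjusted p was 0.0441.

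The core of the antioxidant response element, TGACNNNGC, was searched on both strands of the RefSeq promoter windows (GRCm38.p6), which reach from 250 bases before to 50 bases after a gene's start. A window was found for 34 of the 40 genes, and 7 of the 34 (20.6%) held the motif, against 14% of the 27025 genes in the table and 16.2% of the 14739 of those genes that were counted here. The 7 matches are shown because they are where NRF2's motif lies nearest the start of these genes. Each is printed 5′ to 3′ on the strand that reads TGACNNNGC, which is given in capitals with 8 bases on either side.
*Nfe2l2*: agcccaccTGACTCCGCcatgcccc
*Gclm*: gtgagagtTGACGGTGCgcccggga
*Prdx1*: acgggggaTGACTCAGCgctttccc
*Srxn1*: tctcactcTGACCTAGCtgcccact
*Gstm5*: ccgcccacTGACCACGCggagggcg
*Sod1*: cctgagtcTGACCACGCccaccttg
*Ucp2*: gcgtggcgTGACGAGGCggagccag
The stretches lie at chr2:75704887-75704911 (minus strand) for *Nfe2l2*, chr3:122245415-122245439 (minus) for *Gclm*, chr4:116685458-116685482 (minus) for *Prdx1*, chr2:152105544-152105568 (minus) for *Srxn1*, chr3:107895804-107895828 (plus) for *Gstm5*, chr16:90220698-90220722 (minus) for *Sod1* and chr7:100493284-100493308 (minus) for *Ucp2*. The motif was on the gene's own strand in *Nfe2l2* and *Gstm5* and on the opposite strand in the other 5. In *Srxn1* it lay after the start of the gene, and in the other 6 before it. The consensus bound by FXR, a pair of AGGTCA half-sites facing each other with 1 base between, was searched as exact letters. It was in 0 of the 34 genes, in 0 of the 14739 genes counted here and in 3 of all 32851 windows. A match is thus so rare that its absence says nothing about FXR sites in these 34 genes. A match is a description of letters, and no binding was measured here.

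The 40 genes differed far more from each other than between libraries. Levels are compared between genes as CPM per kilobase of the longest GENCODE transcript paired with a RefSeq mRNA, averaged over the 6 libraries. *Gpx3*, the secreted glutathione peroxidase, was the highest at 391, with 349.9 ± 79.0 (SD, n = 3) in FXR+/+ and 431.8 ± 56.0 (SD, n = 3) in FXR-/- islets. *Txnip* (196) and the cytosolic dismutase *Sod1* (194) came next, with overlapping libraries, so that their order is within the spread. *Gpx4*, which reduces lipid peroxides, followed at 93.5, then *Gstp1* at 64.4, *Ucp2* at 61.8, *Prdx5* at 57.3, *Gpx1* at 57.2 and *Prdx6* at 55.4, where *Gstp1* and *Ucp2* lay within each other's SD, as did *Prdx5*, *Gpx1* and *Prdx6*. At the lower end stood *Hmox1* (3.35), *Cat* (3.26), *Nqo1* (2.82), *Txnrd3* (1.58), *Gsta4* (1.31), *Gpx7* (1.29), *Gpx8* (1.19), *Prdx2* (0.997) and *Sod3* (0.691). When the length of all annotated exons together was used, 4 of the 6 highest genes were the same, and *Sod1* took rank 10. The exon table held 4.61% of the gene counts of *Sod1*, 6.24% of *Gpx4*, 0.554% of *Gstp1* and 3.12% of *Prdx5*, beside a median of 40.4% over the 40 genes. The exon counts of *Prdx2* all fell in a single exon. The ranks of these genes may thus depend on how reads were counted, which is not given.

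**Figure D1:**
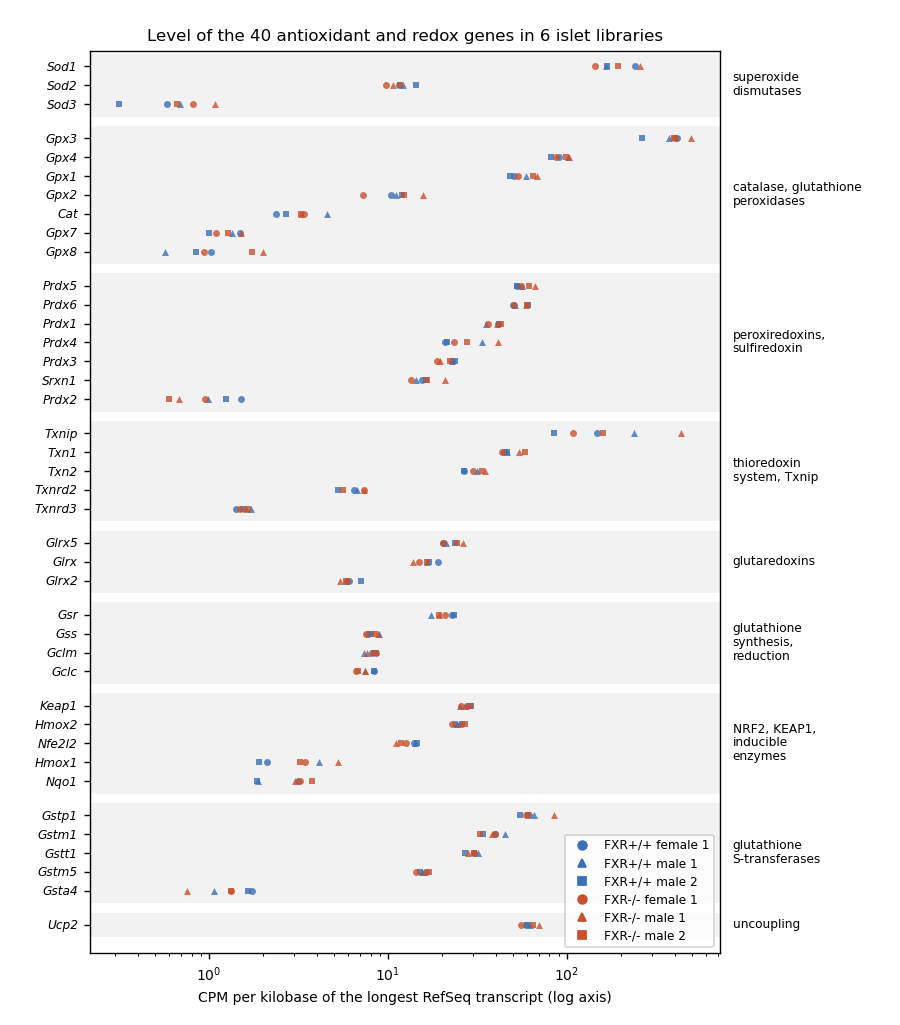
Level of the 40 genes by role, as CPM per kilobase of the longest GENCODE transcript paired with a RefSeq mRNA, on a log axis. Each point is 1 library, blue for FXR+/+ and red for FXR-/-, with the sex and number given by the marker shape. *Gpx3*, *Txnip* and *Sod1* lie at the right, and *Sod3*, *Prdx2*, *Gpx8* and *Gpx7* at the left.

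Between libraries most of the genes were steady. The ratio of the highest to the lowest of the 6 libraries had a median of 1.36 over the 40 genes and was under 1.5 for 25 of them. *Txnip* had the widest ratio, 5.12, which 3.0% of the genes tested reached.

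No gene of the 40 passed the test between genotypes. In edgeR's quasi-likelihood fit with sex as a term, 0 of the 40 had an adjusted p under 0.05, against 0.0% of all genes tested, and the adjusted p ran from 0.43 to 0.992. At an unadjusted p under 0.05 there were 4 of 40, 1 higher in FXR-/- islets (*Nqo1*) and 3 lower (*Nfe2l2*, *Prdx2* and *Sod2*). Among all genes the share was 10.3%, with 6.18% higher and 4.15% lower, so the count of 4 is near the background. The split of directions depended on the setting, with 0 higher and 6 lower when libraries were scaled by library size alone, and 4 higher and 1 lower in males alone. By DESeq2, 0 of the 40 were called and 3 had an unadjusted p under 0.05, against 1.16% and 9.1% of all genes. With the replicate number as a block, 0 of the 40 were called (0.157% of all genes, lowest adjusted p of the 40 = 0.164) and 10 had an unadjusted p under 0.05 (16.1% of all genes), 7 higher (*Hmox1*, *Sod3*, *Prdx4*, *Nqo1*, *Txn2*, *Gpx1* and *Gpx8*, against 9.83% of all genes) and 3 lower (*Nfe2l2*, *Prdx2* and *Sod2*, against 6.23%). The count of 4 rested on single libraries: it was 10 without FXR+/+ male 1, 1 without FXR+/+ male 2 and 2 without FXR-/- male 1.

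The log2 fold changes of FXR-/- over FXR+/+ ran from -0.76 (*Prdx2*) to 0.88 (*Gpx8*), with a median of 0.041 beside 0.0084 for all genes tested. They were above 0 for 27 genes and below 0 for 13. This split depended on the setting, as the sign changed for 12 of the 40 with library size alone and for 8 with a term for acinar RNA. When libraries were scaled by library size alone, the median was -0.057 for the 40 genes and -0.087 for all genes. The 95% interval lay wholly within a 1.5-fold change for 28 of the 40 genes, against 63.4% of all genes tested, and for the other 12 a change of that size was not bounded. The FXR+/+ and FXR-/- libraries did not overlap for 3 of the 40, *Nfe2l2*, *Prdx2* and *Prdx3*, all lower in FXR-/- islets, against 15.4% of all genes in either direction, 7.37% lower and 8.02% higher.

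**Figure D2:**
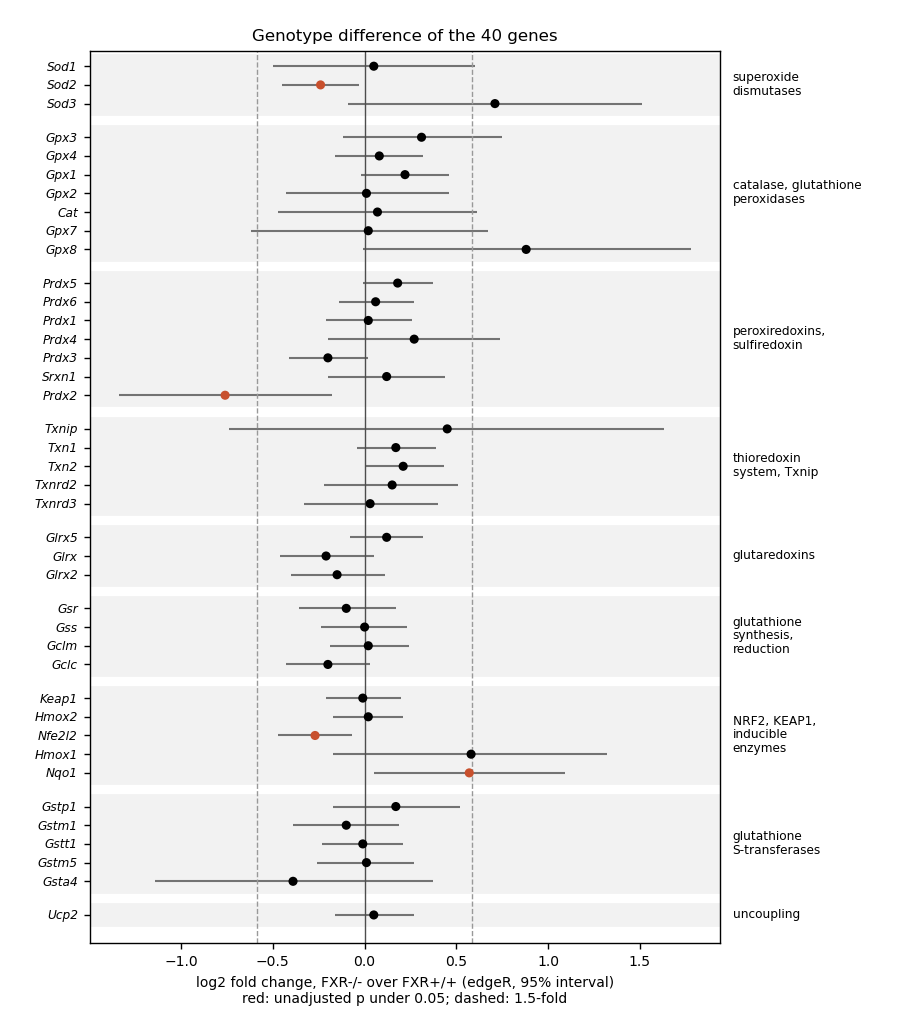
Log2 fold change of FXR-/- over FXR+/+ for the 40 genes by role, from edgeR, with bars for the 95% interval and dashed lines at a 1.5-fold change. Red points have an unadjusted p under 0.05. The points run from -0.76 for *Prdx2* to 0.88 for *Gpx8*, and the interval of *Txnip* runs from -0.74 to 1.63.

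Of the regulators, *Nfe2l2* (NCBI gene 18024, GRCm38 chromosome 2, 75675513 to 75704641, minus strand) was 34.5, 35.1 and 36.0 CPM in FXR+/+ female 1, male 1 and male 2, and 31.1, 27.5 and 29.3 CPM in the FXR-/- libraries. All 3 FXR-/- libraries lay under the lowest FXR+/+ library. Its log2 fold change was -0.27 (SE 0.0858, 95% interval -0.47 to -0.07, adjusted p = 0.43 by edgeR), and the exact two-sided permutation test gave p = 0.1, the smallest that 3 libraries against 3 allow. Its exon counts came mostly from the 1672-base exon at the 3′ end, with 459 of 508 in FXR+/+ female 1. *Keap1*, the inhibitor that marks NRF2 for degradation, was 80.1 to 92.2 CPM in FXR+/+ and 81.4 to 91.8 CPM in FXR-/- islets, with a log2 fold change of -0.01 (95% interval -0.21 to 0.20).

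Among the inducible enzymes, *Nqo1*, the quinone reductase often read as a reporter of NRF2, was low. It had 4.90, 2.92 and 2.90 CPM in FXR+/+ libraries and 5.02, 4.68 and 5.85 CPM in FXR-/- libraries. The female FXR+/+ library lay among the FXR-/- values, and the male pairs were apart. By edgeR the log2 fold change was 0.57 (SE 0.222, 95% interval 0.05 to 1.09, adjusted p = 0.461). *Hmox1*, the heme oxygenase that stress induces, ran from 2.97 to 6.49 CPM in FXR+/+ and from 5.09 to 8.31 CPM in FXR-/- islets, with the male 1 library the highest in both, and had a log2 fold change of 0.58 that was 0.22 with a term for acinar RNA. *Hmox2*, the constitutive enzyme, was 41.2 to 44.9 and 39.7 to 46.9 CPM. *Hmox2* shares 892 exon bases with *Cdip1* on the opposite strand.

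The 3 superoxide dismutases gave different pictures. *Sod2* (NCBI gene 20656, chromosome 17, 13006846 to 13040063, plus strand), the mitochondrial enzyme, was 68.0, 71.2 and 83.7 CPM in FXR+/+ libraries and 57.3, 62.7 and 68.6 CPM in FXR-/- libraries. The FXR-/- library was lower in each pair, while the highest of them lay just above the lowest FXR+/+ library. This gave a log2 fold change of -0.24 (SE 0.0896, 95% interval -0.45 to -0.03, adjusted p = 0.457 by edgeR), and -0.16 with a term for acinar RNA. *Sod3*, the extracellular enzyme, was 1.17 to 2.58 CPM in FXR+/+ and 2.48 to 4.05 CPM in FXR-/- islets. Its log2 fold change was 0.71 (95% interval -0.09 to 1.51), and 0.34 with the acinar term.

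*Sod1* (NCBI gene 20655, chromosome 16, 90220754 to 90226329, plus strand) was 154, 106 and 107 CPM in FXR+/+ female 1, male 1 and male 2, and 92.1, 164.5 and 124 CPM in the FXR-/- libraries. The female FXR-/- library was the lowest of the 6, and the male 1 FXR-/- library the highest. The log2 fold change over all libraries was 0.05 (SE 0.235, adjusted p = 0.945 by edgeR). The exon table gave *Sod1* 146, 127 and 155 counts in the FXR+/+ libraries against 116, 99 and 163 in the FXR-/- libraries, 4.61% of its gene counts. These counts are not scaled for library size. FXR-/- male 1 was the lowest of them, while in the unscaled gene counts it stood above FXR+/+ male 1 (3127 against 2134). The gene table and the exon table thus did not order the libraries alike, and the rule by which reads were counted is not given in the sources used here. The exon table also held under 10% of the gene counts of *Gpx4*, *Prdx5*, *Txn1*, *Gstm5*, *Gstp1* and *Gsta4*, beside a median of 40.4% over the 40 genes.

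Catalase and the glutathione peroxidases were tested as 7 genes. In the fit with sex 0 of the 7 had an unadjusted p under 0.05, against the 10.3% of all genes, and with the replicate block 2 did, *Gpx1* (unadjusted p = 0.0362 by edgeR) and *Gpx8* (unadjusted p = 0.0478 by edgeR). *Gpx3* was 661, 594.8 and 417 CPM in FXR+/+ libraries and 640.0, 791 and 633.5 CPM in FXR-/- libraries. The lowest value was FXR+/+ male 2 and the groups overlapped. Its log2 fold change was 0.31 (SE 0.186, 95% interval -0.12 to 0.75), and 0.13 with the acinar term. *Gpx4* was 90.1, 100.7 and 80.7 CPM against 86.9, 102 and 98.2 CPM, with a log2 fold change of 0.08 (95% interval -0.16 to 0.32), which was -0.02 with library size alone. *Gpx2*, the gastrointestinal form, was 11.1, 11.8 and 12.8 CPM in FXR+/+ and 7.70, 16.7 and 13.1 CPM in FXR-/- libraries, so that the FXR+/+ values lay between the FXR-/- extremes. *Gpx1*, the cytosolic form, was 51.7 to 63.6 and 57.0 to 72.7 CPM, and *Cat* was 6.18 to 11.9 and 8.52 to 8.83 CPM. *Gpx7* and *Gpx8*, which lie in the endoplasmic reticulum, were at 1.29 to 1.95 and 0.595 to 2.10 CPM over all libraries. The 2 male FXR-/- libraries of *Gpx8*, at 2.10 and 1.81 CPM, were the highest of the 6.

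The peroxiredoxins are abundant thiol peroxidases, and sulfiredoxin (*Srxn1*) repairs them when they are over-oxidized. *Prdx3* (NCBI gene 11757, chromosome 19, 60864051 to 60874556, minus strand), the mitochondrial member, was 33.7, 33.6 and 35.1 CPM in FXR+/+ and 27.7, 28.9 and 32.8 CPM in FXR-/- libraries. The groups did not overlap, though FXR-/- male 2 lay close to the lowest FXR+/+ library. Here the log2 fold change was -0.20 (SE 0.0902, 95% interval -0.41 to 0.02, adjusted p = 0.487 by edgeR). *Prdx4*, which works in the endoplasmic reticulum, was highest in the male 1 library of both genotypes, at 33.2 CPM (FXR+/+) and 40.7 CPM (FXR-/-), against 20.7 to 27.3 CPM in the other 4. The fold change, 0.27 on the log2 scale, was 0.03 with the acinar term. *Prdx1*, *Prdx5*, *Prdx6* and *Srxn1* had log2 fold changes of 0.02 to 0.18. *Prdx5* shares 409 exon bases with *Trmt112* on the opposite strand.

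*Prdx2* (NCBI gene 21672, chromosome 8, 84969587 to 84974834, plus strand) had the lowest log2 fold change of the 40. It was 2.43, 1.59 and 2.02 CPM in FXR+/+ and 1.54, 1.10 and 0.968 CPM in FXR-/- libraries, and the groups did not overlap. Its log2 fold change was -0.76 (SE 0.248, 95% interval -1.34 to -0.18, adjusted p = 0.43 by edgeR, exact permutation p = 0.1). These values rest on 57, 32 and 64 reads of the FXR+/+ libraries and 38, 21 and 23 of the FXR-/- libraries. In the exon table all of them fall in the 811-base exon from 84974000 to 84974810, at the 3′ end of the gene, which overlaps exon bases of *Junb* on the opposite strand from 84974484 to 84974656. Whether strand was used in counting is not given in the sources used here, so reads of *Prdx2* and *Junb* cannot be told apart there. *Junb* was 286, 466 and 30.8 CPM in FXR+/+ and 115, 674 and 206 CPM in FXR-/- libraries. The part of *Junb* reads in the counts of *Prdx2* was not tested. With no count on its other exons, the value of *Prdx2* is uncertain as a level of the whole transcript.

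**Figure D3:**
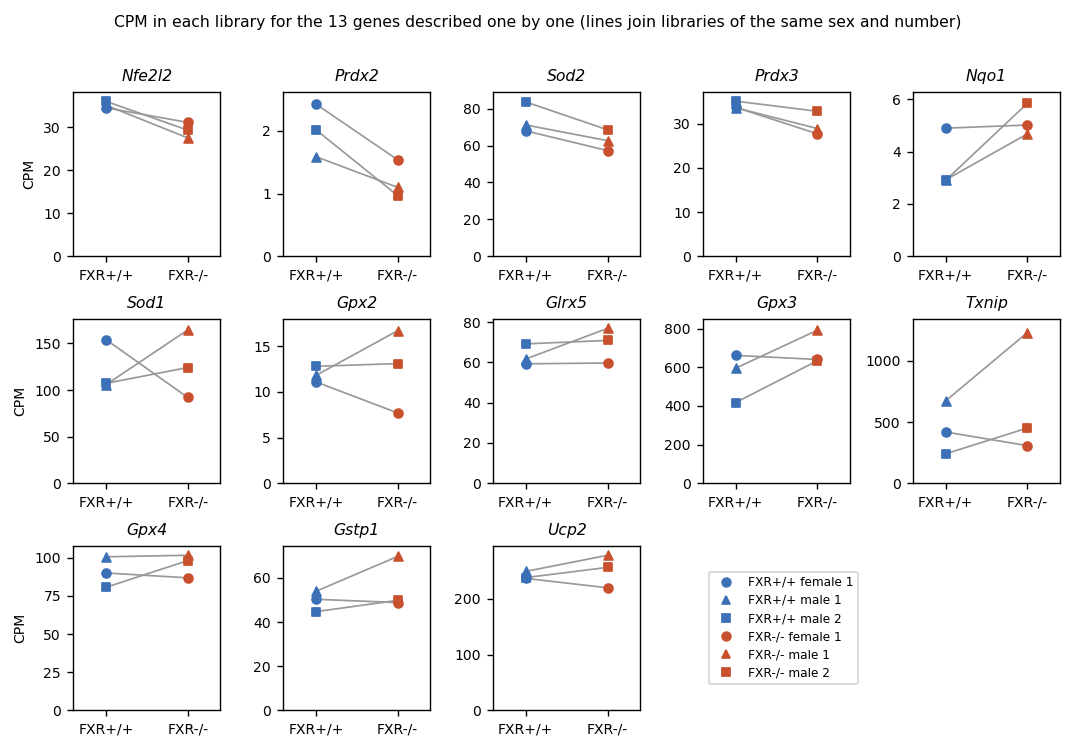
CPM in each library for the 13 genes described one by one, with axes from 0. Lines join libraries of the same sex and number. *Nfe2l2*, *Prdx2* and *Prdx3* show no overlap between genotypes, and the lines of *Sod1* and *Gpx2* cross, with the female pair sloping down.

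The thioredoxin system passes electrons from NADPH to peroxiredoxins, and *Txnip* binds and inhibits thioredoxin. *Txnip* (NCBI gene 56338, chromosome 3, 96557957 to 96561883, plus strand) was 419, 673 and 240.5 CPM in FXR+/+ and 307, 1231 and 451 CPM in FXR-/- libraries. The male 1 library was the highest in both genotypes, and the groups overlapped widely. FXR-/- over FXR+/+ gave a log2 fold change of 0.45 (SE 0.507, 95% interval -0.74 to 1.63, adjusted p = 0.741 by edgeR). It was -0.18 with a term for acinar RNA, -0.20 without FXR-/- male 1 and -0.01 without FXR+/+ male 2, so its sign depended on the libraries and terms used. *Txn1* was 46.8 to 48.9 and 45.6 to 61.3 CPM, the mitochondrial *Txn2* was 34.6 to 40.8 and 38.7 to 45.5 CPM, and the reductases *Txnrd2* and *Txnrd3* had log2 fold changes of 0.15 and 0.03.

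The glutaredoxins, which remove glutathione from proteins, showed 0 of 3 genes at an unadjusted p under 0.05 between genotypes, in the fit with sex and with the block. *Glrx5*, a mitochondrial protein of iron-sulfur cluster assembly, was 59.3, 61.7 and 69.2 CPM in FXR+/+ and 59.7, 76.9 and 70.9 CPM in FXR-/- libraries, with the female library the lowest in both genotypes. *Glrx* and *Glrx2* had log2 fold changes of -0.21 and -0.15. The enzymes that make and recycle glutathione held 0 of 4 such genes. Their log2 fold change was -0.20 for *Gclc*, the catalytic subunit of the rate-limiting ligase, 0.02 for *Gclm*, its modifier subunit, -0.10 for *Gsr*, the reductase, and within 0.01 of 0 for *Gss*, the synthetase, with SEs of 0.0919 to 0.112. *Gss* shares 395 exon bases with *Acss2* on the opposite strand.

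The glutathione S-transferases, which join glutathione to electrophiles, held 0 of 5 genes at an unadjusted p under 0.05 in either fit. *Gstp1* was 50.3, 53.9 and 44.7 CPM in FXR+/+ and 48.8, 69.7 and 49.8 CPM in FXR-/- libraries. The FXR-/- male 1 library was the highest of the 6. Over all libraries its log2 fold change was 0.17 (SE 0.148, 95% interval -0.17 to 0.52), and -0.01 without that library. *Gstm1*, *Gstm5* and *Gstt1* had log2 fold changes of -0.10, 0.01 and -0.01, and *Gsta4*, at 0.736 to 1.70 CPM, one of -0.39 (95% interval -1.14 to 0.37). The transferases of this family are close paralogs, and how reads shared by copies were counted is not given in the sources used here. *Ucp2*, a carrier of the inner mitochondrial membrane that is known in β-cells for lowering glucose-stimulated insulin release, was 236.8, 249 and 238 CPM in FXR+/+ and 220.0, 278 and 256.6 CPM in FXR-/- libraries. That is a log2 fold change of 0.05 (SE 0.0912, 95% interval -0.16 to 0.27), an interval that leaves out a 1.5-fold change. *Ucp2* shares 305 exon bases with *Dnajb13* on the opposite strand.

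Libraries of the same sex and number were then compared pair by pair. Of the 40 genes, 13 were higher in the FXR-/- library of the female 1 pair, 28 in the male 1 pair and 27 in the male 2 pair, against 50.4%, 49.6% and 52.7% of all genes tested. The direction was the same in all 3 pairs for 17 of the 40, against 39.3% of all genes. In both genotypes male 1 was the highest library for 12 of the 40 (*Gpx1*, *Gpx4*, *Gss*, *Gstp1*, *Hmox1*, *Prdx4*, *Prdx5*, *Sod3*, *Txn2*, *Txnip*, *Txnrd2* and *Ucp2*), against 17.0% of all genes tested. Male 1 was also the library with the most acinar RNA in both genotypes, and the part of that RNA in these values was not tested. The log2 fold changes of *Txnip*, *Gpx3*, *Hmox1*, *Sod3* and *Prdx4* were given above as lower with an acinar term, and that of *Sod2* went from -0.24 to -0.16. Further genes were also lower with it, among them *Gpx1* (0.22 without and 0.13 with the term), *Gstp1* (0.17 and 0.02) and *Cat* (0.07 and -0.09). The median over the 40 genes was 0.041 without and 0.009 with the term. Some genes were not lower with it, among them *Gpx8* (0.88 and 0.90) and *Nqo1* (0.57 and 0.58). The same held for *Prdx1* (0.02 and 0.09) and *Prdx6* (0.06 and 0.13).

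**Figure D4:**
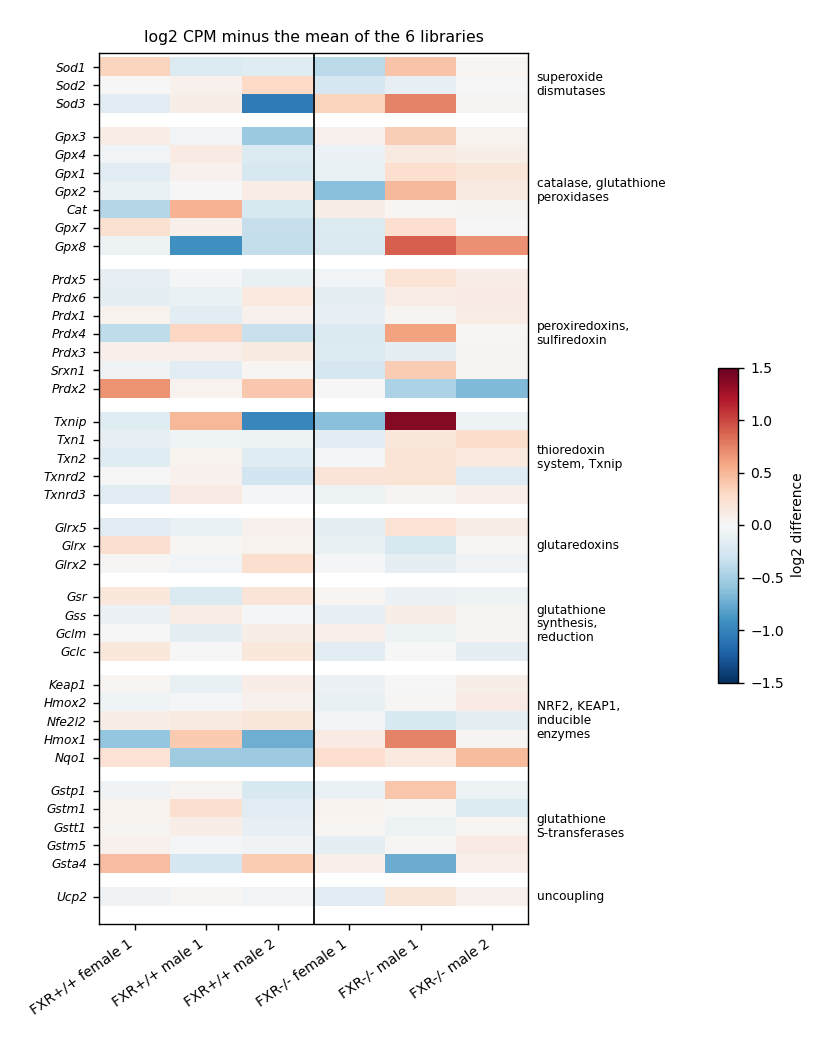
Deviation of each library from the mean of the 6, in log2 CPM, for the 40 genes by role. Red is above and blue below the mean. The column of FXR-/- male 1 holds the darkest red, at *Txnip*, and the rows of glutathione synthesis are pale throughout.

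Male and female libraries did not differ in any of the 40 genes at an adjusted p under 0.05 (0 of 40, against 0.0547% of all genes, lowest adjusted p = 0.643 by edgeR). At an unadjusted p under 0.05 there were 2 of 40, both higher in males, against 7.48% of all genes in either direction and 3.85% higher. They were *Gpx2*, with a log2 difference of male minus female of 0.53 (SE 0.206), and *Glrx5*, with 0.22 (SE 0.0926, adjusted p = 0.651 by edgeR). The interaction of genotype and sex gave 0 of 40 at an adjusted p under 0.05 (0.0% of all genes, lowest adjusted p of the 40 = 1.0) and 2 at an unadjusted p under 0.05, *Sod1* and *Gpx2*, both above 0, against 1.48% of all genes in either direction and 0.684% above 0. With 1 female library in each genotype, the spread among females is not measured.

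The rest of the redox network was counted from 9 lists of 140 related genes, of which 136 were in the table and 121 were tested. None of the 121 had an adjusted p under 0.05 by edgeR, with or without the block, or by DESeq2. At an unadjusted p under 0.05 by edgeR, 12 were higher and 3 lower in FXR-/- islets, and 18 did not overlap, beside the 10.3% and 15.4% given above for all genes. Their median log2 fold change was 0.06. The 15 were 21 with the block and 11 by DESeq2. In the list of glutathione supply and breakdown, 4 of 13 were higher, against 6.18% of all genes, and the median was 0.15. There the renal-type dipeptidase *Dpep1*, which splits a breakdown product of glutathione, was 0.511, 1.14 and 0.379 CPM in FXR+/+ and 2.23, 1.68 and 1.26 CPM in FXR-/- libraries (log2 fold change 1.39, SE 0.457, adjusted p = 0.43 by edgeR). The mitochondrial glutathione carrier *Slc25a39* was 123.4 to 130.0 CPM against 137 to 166 CPM (0.23, SE 0.0907).

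Other genes of these lists with non-overlapping libraries and an unadjusted p under 0.05 were few. The microsomal transferase *Mgst1* had a log2 fold change of 0.84 (SE 0.277) and nucleoredoxin, *Nxn*, one of 0.48 (SE 0.128, adjusted p = 0.369 by edgeR). With the acinar term they were 0.61 and 0.41. *Nfe2l3*, a relative of NRF2, was 0.298 to 0.396 CPM in FXR+/+ and 0.631 to 1.22 CPM in FXR-/- libraries, and *Abcc4*, an exporter that carries glutathione conjugates, had a log2 fold change of 0.21. *Txndc9* was lower, at -0.21 (SE 0.0904). The NADPH oxidases and their subunits, which make superoxide, showed 0 of 10 tested genes at an unadjusted p under 0.05 and a median of 0.01. The NADPH-producing enzymes had 1 of 15 higher and a median of 0.07. Of NRF2's partners and other targets, 2 of 27 were higher and 1 lower at that level, with a median of 0.09. The other glutathione S-transferases had 2 of 14 higher, the other thioredoxin and glutaredoxin genes 1 of 16 in each direction, the selenoprotein genes 1 of 20 in each direction, the metallothioneins 1 of 3 higher and the other uncoupling proteins 0 of 3.

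**Figure D5:**
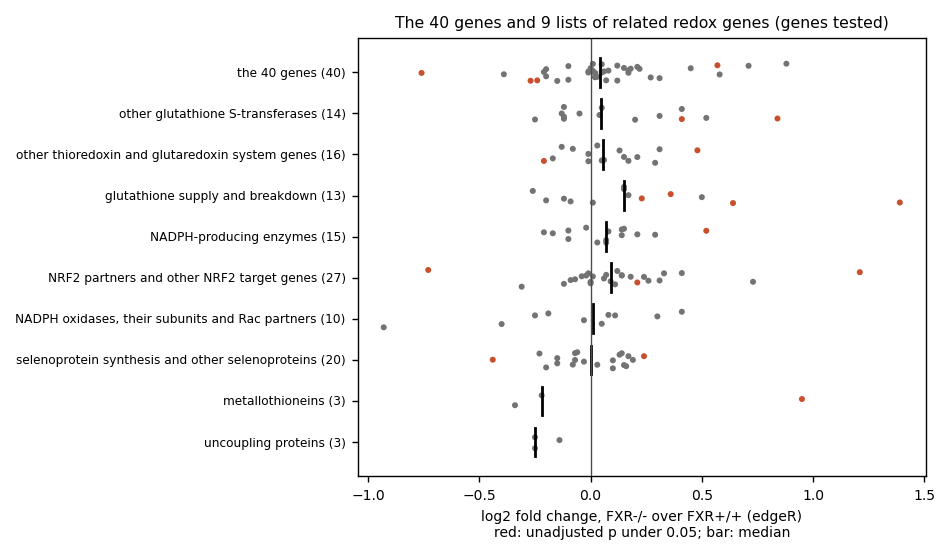
Log2 fold change of FXR-/- over FXR+/+ for the 40 genes and for 9 lists of related redox genes, with the number of genes tested in brackets. Each point is 1 gene, red at an unadjusted p under 0.05, and the black bar is the median, which lies at 0.041 for the 40 genes and at 0.15 for glutathione supply and breakdown.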

How the data were processed

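Islet libraries of the FXR+/+ and FXR-/- genotypes were analysed from counts per gene, which the authors deposited as whole numbers without normalization, and from their counts per exon on GRCm38. The submitters' processing notes name HISAT; annotation, counting rule and strand setting are not given in the sources used here. The authors' own comparison tables were not used, and 0 columns of sample values were left out. Positions of genes and exon overlaps are those of GENCODE on GRCm38, positions of counted exons are the authors', and promoter windows are RefSeq's. Transcript lengths are those of the longest GENCODE transcript paired with a RefSeq mRNA. An overlap with a further gene is not reported here.

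Groups came from the labels. Counts of all 6 libraries were fitted in R 4.3.3 with edgeR 4.0.16 (filterByExpr with minimum count 10 and minimum total 15, TMM, glmQLFit, glmQLFTest) with terms for sex and genotype, or with their interaction, and p-values were adjusted by Benjamini and Hochberg over 14619 genes. With 3 residual and 4.43 prior degrees of freedom, SEs were taken from the F statistic and 95% intervals from the t distribution. The fits were first run on simulated counts with 200 changed genes and the same relative spread for every gene. That setting held no sex, pair or acinar differences, so it does not measure how well changes are found in these data. DESeq2 1.42.0, a block for the replicate number, males alone, other scalings, filters, counts summed from exons, a term for acinar RNA (log2 of the summed markers), leaving out the 20 most abundant genes and each library left out were the alternatives. Permutation tests used log2(CPM + 0.01) over all 20 relabellings, two-sided. Deviations of same-numbered libraries from their genotype means correlated at 0.361, 0.367 and 0.323, and those of others at 0.02 or less. The numbers in the labels were therefore taken to pair libraries, and what they mark is not stated. That choice came from these same data, so p-values with the block are not independent support. The female pair also shares a sex, and male 1 had the most acinar RNA in both genotypes. The part of either in these correlations was not tested.

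The members, lists and tests were chosen with earlier results of these data known. Genes were given in every library where the unadjusted p was under 0.05 for genotype, sex or interaction, where the genotypes did not overlap, or where the level per kilobase was among the 6 highest (13 genes). Genes of the 9 wider lists were named where both the first held for genotype and libraries did not overlap. Totals of 20629306 to 30139235 counts leave genes near 1 CPM, such as *Prdx2*, with 21 to 64 counts in a library.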

Additional observations from a re-analysis of the deposited data

Results flagged for a closer look

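*Sod1* was lower in the FXR-/- library of the female pair (154 against 92.1 CPM) and higher in both male pairs (106 against 164.5 CPM and 107 against 124 CPM). The interaction was 1.18 on the log2 scale (male minus female, SE 0.258, unadjusted p = 0.00341 and adjusted p = 1.0 by edgeR). It did not pass the test after adjustment, and it rests on 1 female library of each genotype. The exon counts, 4.61% of the gene counts, went the same way as the CPM in the female and male 2 pairs but not in the male 1 pair. Without scaling, FXR-/- male 1 had 99 and FXR+/+ male 1 had 127, against 3127 and 2134 gene counts.

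*Gpx2* was also lower in the FXR-/- library of the female pair (11.1 against 7.70 CPM) and higher in both male pairs (11.8 against 16.7 CPM and 12.8 against 13.1 CPM). The interaction was 0.80 on the log2 scale (SE 0.309, unadjusted p = 0.0403 and adjusted p = 1.0 by edgeR). By DESeq2, *Sod1* alone of the 40 genes had an unadjusted p under 0.05 for the interaction (4.06e-05, adjusted p = 0.117), and *Gpx2* had 0.0944. Over all 40 genes the interaction was above 0 for 30, with a median of 0.16 beside 0.002 for all genes tested. All of these values use the same 1 female library of each genotype, so the genes are not separate observations of a sex difference.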

How the results depend on the processing

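None of the 40 genes was called between genotypes, between sexes or for the interaction under any alternative run. The number at an unadjusted p under 0.05 between genotypes was 4. It was 10 with the replicate block, 7 with counts summed from exons (37 of the 40 genes tested), and from 1 to 10 when 1 library was left out. Run for the genotype comparison alone, the replicate block took the calls over all genes from 0 to 23. It changed no call of the 40 genes or the wider lists, and *Nr1h4* passed the threshold with it (-1.08, adjusted p = 0.0441) and by DESeq2 (-1.08, adjusted p = 8.59e-05). Between sexes the number was 2. It was 0 with library size alone, 7 with the acinar term and from 1 to 6 when 1 library was left out. The interaction had 2, and 1 by DESeq2.

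Over all 40 genes, the log2 fold change between genotypes took the other sign for 12 with library size alone, 8 with the acinar term, 5 with counts summed from exons and 3 in males alone. The values that follow are for the 13 genes given in every library. With library size alone they were -0.09 (*Gpx2*), -0.02 (*Gpx4*), -0.05 (*Sod1*) and -0.04 (*Ucp2*). With the acinar term they were -0.03 (*Gpx2*), -0.01 (*Gpx4*), -0.05 (*Sod1*) and -0.18 (*Txnip*), and with counts summed from exons -0.04 (*Sod1*). Leaving out FXR+/+ male 1 gave -0.10 for *Gpx2*, and leaving out FXR+/+ male 2 gave -0.08 for *Sod1*. Leaving out any 1 library gave -0.17 to 0.27 for *Gpx2*, -0.03 to 0.15 for *Gpx4*, -0.01 to 0.28 for *Gstp1*, -0.18 to 0.44 for *Sod1*, -0.20 to 0.88 for *Txnip* and -0.01 to 0.13 for *Ucp2*. The cause was not tested. The direction held in all alternatives run for *Nfe2l2* (-0.36 to -0.21), *Prdx2* (-0.85 to -0.64), *Sod2* (-0.34 to -0.16), *Prdx3* (-0.29 to -0.15) and *Nqo1* (0.40 to 0.85). These genes were picked for a low unadjusted p or non-overlapping libraries in the same data, so their stable sign is not independent support. Where libraries do not overlap, leaving out 1 of them leaves little room for the other sign. Leaving out a female library leaves the other female library with no partner, so that fit rests on the males.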
